A study of Mus musculus with 4 samples.

Results

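The genes described here encode integrins and other cell adhesion molecules, compared between CD8α+ and CD8α− dendritic cells of the mouse spleen. They were chosen as the array probe sets whose only gene symbol is one of 37 listed names, covering 22 integrin subunits and 15 immunoglobulin-like, cadherin-like, selectin-ligand and related molecules. Of the 37 genes, 36 had a probe set, 88 probe sets in all, out of 18193 genes named on the array. The integrin gene Itgad had none under its own symbol. RNA of CD8α+ spleen dendritic cells of C57BL/6 mice (2 arrays) was compared with RNA of CD8α− spleen dendritic cells of the same strain (2 arrays), on Affymetrix Mouse Genome 430 2.0 arrays. Neither population is described as treated or as carrying an altered allele. How the cells were isolated, the age of the mice and whether animals were pooled are not given in the sources used here. On RNA preparation they disagree, as the labels name Trizol and cRNA made from total RNA, and the design text names purified mRNA and labelled cDNA. Which was used for which array is not settled, and its part in the signals was not tested. No label ties the 2 arrays of a population to different animals, so the spread between them may be technical. Each p-value sets the difference between these particular samples against that spread, moderated by the spread of all tested probe sets.

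Integrins are receptors made of an alpha and a beta subunit that join the cell to the matrix or to other cells, and they bind firmly once talin and kindlin attach to the beta tail. In leukocytes the β2 integrins bind ICAM molecules, α4 integrins bind VCAM-1 and fibronectin, and αEβ7 binds E-cadherin. Dendritic cells are recognised by the αX chain (CD11c), and the CD8α+ cells of the spleen belong to the conventional type 1 lineage (cDC1), many of which carry αE (CD103) and the nectin-like molecule CADM1. Most CD8α− spleen dendritic cells belong to the type 2 lineage (cDC2).

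The arrays differed in brightness, so the deposited signals were quantile normalized, and a normalized signal is meant wherever a value per array is given below. Differences are log2 signals of CD8α+ minus CD8α− cells with the standard error (SE) of the limma fit, n = 2 arrays per population. The probe set with the highest mean log2 signal represents a gene, and levels are not compared between genes. Background was the highest of 27 Bacillus control probe sets on each array, at 30.8 and 21.8 in the CD8α+ arrays and 28.3 and 34.5 in the CD8α− arrays. A fold is written "at least" where both arrays of the dimmer population lay below it. A bulk signal cannot tell fewer cells of a type from less RNA per cell.

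The CD8α− arrays were the less alike pair. Of the 60 tested member probe sets, 3 (5%) differed over 2-fold between the CD8α+ arrays and 23 (38.3%) between the CD8α− arrays. Among all tested probe sets the shares were 8.47% and 32.2%. CD8α− replicate 2 was the dimmest as deposited, with a Gapdh control ratio of 3′ to 5′ signal of 10.7 against 1.53 to 2.02 on the other arrays. The same ratio for Actb was 0.759 on that array, against 1.62 to 1.69 on the others, so the controls moved in opposite directions. What sets that array apart was not tested. Cd8a on its brightest probe set read 2014 and 2335 in CD8α+ cells, against 15.2 and 27.0 in CD8α− cells, as labelled. Of 7 cDC1 markers 6 were brighter and 0 dimmer in CD8α+ cells at an unadjusted p under 0.05, and of 7 cDC2 markers 0 were brighter and 6 dimmer. The summed signal of 7 natural killer (NK) cell markers was 715 and 878 in CD8α+ cells, against 3810 and 2374 in CD8α− cells. Of the 7, 0 were brighter and 4 dimmer in CD8α+ cells. Gzma was not among the 4, with 180 and 237 in CD8α+ cells, against 1555 and 274 in CD8α− cells. Markers of neutrophils summed to 6867 and 7501 in CD8α+ cells, against 14341 and 11535 in CD8α− cells, and those of monocytes to 482 and 481 in CD8α+ cells, against 612 and 695 in CD8α− cells. The largest part of the monocyte sum, Treml4, overlapped (302 and 294 in CD8α+ cells, against 263 and 371 in CD8α− cells). Of 5 tested monocyte markers 0 were brighter and 2 dimmer. Plasmacytoid dendritic cell markers gave 981 and 1106 in CD8α+ cells, against 1540 and 2230 in CD8α− cells. Most of that sum was Tcf4 (650 and 762 in CD8α+ cells, against 1198 and 1808 in CD8α− cells), while Ccr9 lay the other way (104 and 95.8 in CD8α+ cells, against 66.1 and 4.04 in CD8α− cells). T cell markers (392 and 601 in CD8α+ cells, against 479 and 455 in CD8α− cells) and B cell markers (218 and 258 in CD8α+ cells, against 183 and 237 in CD8α− cells) overlapped between the populations in sum. Of the 3 tested B cell markers 1 was brighter, Ms4a1, with 125 and 132 in CD8α+ cells, against 45.6 and 48.6 in CD8α− cells (1.45 ± 0.31, 2.74-fold, unadjusted p = 0.00673). Of 3 erythroid markers 0 exceeded background on any array.

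At an unadjusted p under 0.05, 10 of the adhesion genes differed between the populations, and 0 did after adjustment. Of the 36 genes, 28 had a probe set bright enough to be tested. CD8α+ cells had more signal of the nectin-like molecule Cadm1, the integrin alpha subunits Itgae, Itga1, Itga3 and Itga6 and the integrin ligand Vcam1. They had less signal of Dscam, F11r, Itgb3 and Itga5. With limma, 0 of 22519 tested probe sets passed an adjusted p of 0.05, which is 0% of them. The lowest adjusted p was 0.115, a value that probe sets of Cadm1, Itga3, Itgae, Dscam and F11r shared with genes outside the group. At an unadjusted p under 0.05, 6 of 28 member genes (21.4%) were brighter and 4 (14.3%) dimmer in CD8α+ cells, against 7.02% brighter and 8.73% dimmer among all 10532 tested genes. By probe set, 16 of 60 were brighter and 6 dimmer, against 7.75% and 7.79% of all tested probe sets. Both CD8α+ arrays lay above both CD8α− arrays in 11 of the 28 genes and below them in 13, against 25.4% and 28.3% of all genes. The median difference of the 28 genes was -0.11, and that of all genes -0.02.

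The split of calls depended on how the arrays were brought to a common scale. Among members it was 6 brighter and 4 dimmer with quantile normalization, 6 and 2 on the deposited scale, 6 and 7 with trimmed-mean scaling, and 10 and 3 with median centring. Among all genes 10.3% were brighter and 2.37% dimmer on the deposited scale, 5.82% and 16.5% with trimmed means, and 28.3% and 4.20% with median centring, where the 10 brighter of 28 members lay near the share of all genes. The median of all genes stood at 0.66 on the deposited scale, -0.18 with trimmed means and 0.67 with median centring. Of the 10 genes, 9 also had populations that did not overlap in the deposited signals, Itga5 being the exception. The 10 were called on these same 4 arrays, so that count is no separate evidence. No share of all genes is given for the deposited signals.

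**Figure D1:**
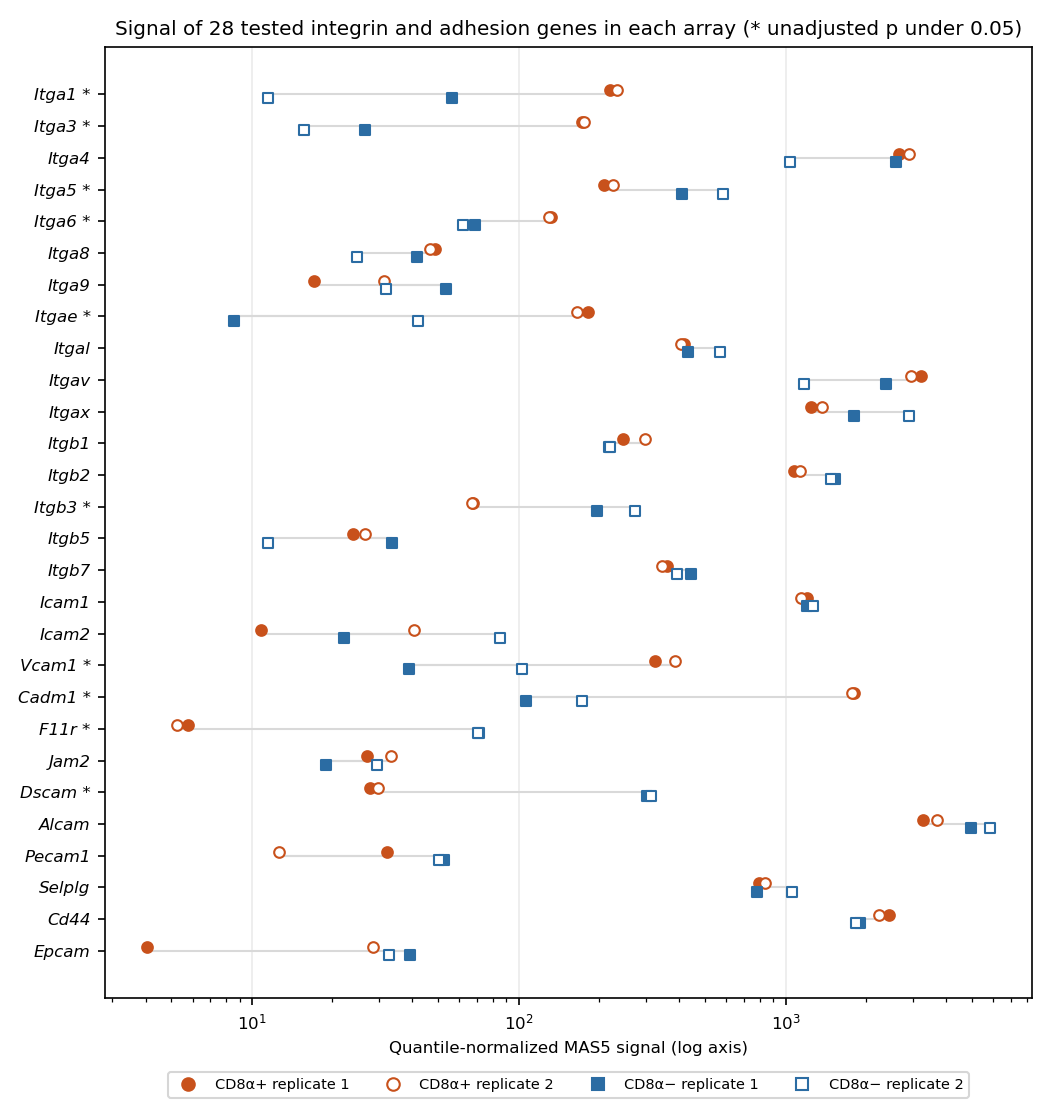
Quantile-normalized MAS5 signal on a log axis for the probe set that represents each of the 28 tested genes, in CD8α+ replicates 1 and 2 (filled and open circles) and CD8α− replicates 1 and 2 (filled and open squares). Asterisks mark the 10 genes with an unadjusted p under 0.05; both Cadm1 signals in CD8α+ cells (1802 and 1775) lie far to the right of those in CD8α− cells (107 and 172), and F11r lies the other way.

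Cadm1, an immunoglobulin-like molecule that binds itself on neighbouring cells and the receptor CRTAM on lymphocytes, was brighter in CD8α+ cells on all 4 of its probe sets. On the representative probe set Cadm1 read 1802 and 1775 in CD8α+ cells, against 107 and 172 in CD8α− cells. The difference was 3.72 ± 0.38, 13.2-fold, with an unadjusted p of 0.000343. The populations were far apart and the CD8α+ arrays nearly equal. The other 3 probe sets gave 4.29 ± 0.31 (19.5-fold), 4.62 ± 0.32 (at least 5.51-fold) and 5.54 ± 1.12. In the second of these both CD8α− arrays were at the floor, which set their spread to 0. The last had 2914 and 2405 in CD8α+ cells, against 174 and 18.7 in CD8α− cells, where replicate 2 lay below background. Crtam, the Cadm1 receptor, belongs to a wider adhesion list and read 94.0 and 90.3 in CD8α+ cells, against 22.0 and 30.0 in CD8α− cells (1.84 ± 0.34, at least 2.95-fold, unadjusted p = 0.00396). Cadm3, another nectin-like gene of that list, went the other way, with 24.96 and 38.1 in CD8α+ cells, against 78.1 and 63.4 in CD8α− cells (-1.19 ± 0.38, unadjusted p = 0.0298).

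Itgae encodes αE, the CD103 chain that pairs only with β7. It read 183 and 165 in CD8α+ cells, against 8.60 and 42.1 in CD8α− cells, a difference of 3.19 ± 0.82 with an unadjusted p of 0.0145. Both CD8α+ arrays stood above both CD8α− arrays, of which replicate 2 was just over background. The Itgae difference was 2.05 when CD8α− replicate 1 was left out and 4.34 when CD8α− replicate 2 was left out. With no filter on dim probe sets the unadjusted p was 0.0512. The other Itgae probe set gave 92.7 and 118 in CD8α+ cells, against 1.98 and 4.53 in CD8α− cells, both below background (at least 3.35-fold). Both CD8α− arrays were at the floor there, so the fitted difference of 3.91 ± 0.32 and its unadjusted p of 0.00014 leave out their spread. Its partner Itgb7 read 360 and 345 in CD8α+ cells, against 441 and 391 in CD8α− cells. That difference of -0.24 ± 0.31 did not pass (unadjusted p = 0.479), and on the deposited scale it was 0.76. Cdh1, which encodes E-cadherin, the ligand of αEβ7, was under the filter, with 1 of 4 arrays above background.

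**Figure D2:**
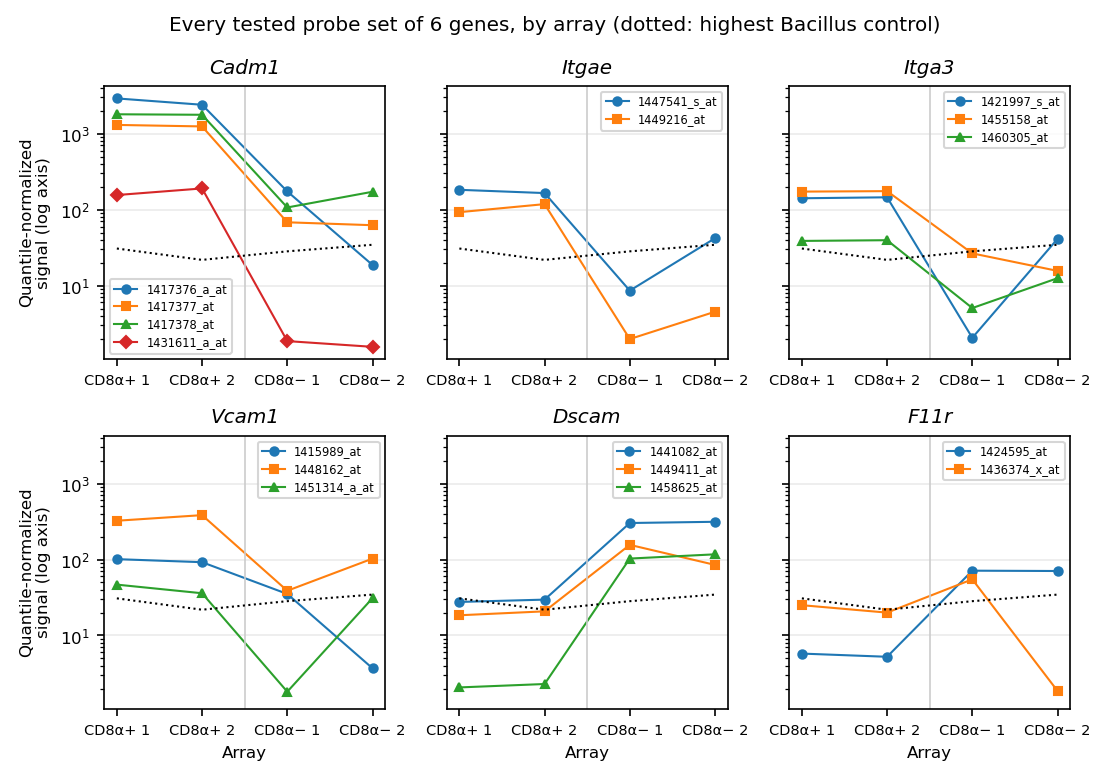
Quantile-normalized signal (log axis) of every tested probe set of Cadm1, Itgae, Itga3, Vcam1, Dscam and F11r in the 4 arrays, CD8α+ left of the grey line and CD8α− right of it, with the background of each array dotted. All 4 Cadm1 probe sets lie lower right of the line and all 3 Dscam probe sets higher, while the F11r probe sets part on CD8α− replicate 2 (70.6 and 1.86).

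Among the alpha subunits that pair with β1, the collagen receptor chain Itga1 and the laminin receptor chains Itga3 and Itga6 were brighter in CD8α+ cells, and the fibronectin receptor chain Itga5 was dimmer. Promoters are shown for Itga1 and Itga3, which were brighter, beside those of Dscam and F11r, which were dimmer. The Itga5 window and another Itga3 window (chr11:95069199-95069448) are not shown, and neither held a match to the motifs named below. The windows are the 250 bases before the RefSeq start (GRCm38.p6), read 5′ to 3′ on the gene's strand, from a table that held windows for 21 of the members.
Itga1, chr13:115101965-115102214, minus strand: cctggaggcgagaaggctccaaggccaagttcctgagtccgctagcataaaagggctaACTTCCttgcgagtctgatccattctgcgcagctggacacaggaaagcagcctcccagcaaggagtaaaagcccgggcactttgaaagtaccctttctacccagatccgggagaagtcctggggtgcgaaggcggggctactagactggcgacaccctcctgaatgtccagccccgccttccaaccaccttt
Itga3, chr11:95076715-95076964, minus strand: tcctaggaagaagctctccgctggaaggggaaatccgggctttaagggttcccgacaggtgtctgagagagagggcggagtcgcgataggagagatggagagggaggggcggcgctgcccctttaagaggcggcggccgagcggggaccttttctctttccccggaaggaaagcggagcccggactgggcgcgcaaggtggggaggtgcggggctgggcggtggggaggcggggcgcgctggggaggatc
F11r, chr1:171437311-171437560, plus strand: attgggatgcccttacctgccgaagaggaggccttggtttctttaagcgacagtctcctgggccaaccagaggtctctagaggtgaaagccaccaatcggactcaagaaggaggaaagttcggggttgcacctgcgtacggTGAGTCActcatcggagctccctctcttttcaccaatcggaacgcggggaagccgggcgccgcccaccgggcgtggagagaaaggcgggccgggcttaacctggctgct
Dscam, chr16:97170736-97170985, minus strand: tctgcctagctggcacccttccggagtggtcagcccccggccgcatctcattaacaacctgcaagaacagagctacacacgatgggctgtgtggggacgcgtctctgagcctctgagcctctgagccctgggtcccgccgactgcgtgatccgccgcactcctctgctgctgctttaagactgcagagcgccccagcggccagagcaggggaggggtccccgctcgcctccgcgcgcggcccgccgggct
Capitals mark matches, on either strand, to the ETS-type string GGAAGT, an ETS-IRF composite motif, the AP-1 motif TGANTCA and an NF-kB motif. Shorter GGAA stretches were not marked. The Itga1 window held a GGAAGT match starting 192 bases before the start, and the F11r window an AP-1 match starting 109 bases before it. The Itga3 and Dscam windows shown held no marked match. Of all 32851 windows 19.7% held GGAAGT, 2.30% the composite, 6.75% the AP-1 motif and 1.41% the NF-kB motif. Of the 22 windows of members, 4, 1, 2 and 0 held them in that order.

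Itga1 read 220 and 234 in CD8α+ cells, against 56.3 and 11.5 in CD8α− cells (3.16 ± 0.82, unadjusted p = 0.0151). The populations did not overlap, and the CD8α− arrays were further apart from each other than the CD8α+ arrays. The Itga1 difference was 4.30 when CD8α− replicate 1 was left out and 2.01 when CD8α− replicate 2 was, and with no filter its unadjusted p was 0.0525. Its second probe set gave 1.80 ± 0.59 (at least 1.30-fold). Itga3 read 173 and 175 in CD8α+ cells, against 26.6 and 15.6 in CD8α− cells, both below background (3.09 ± 0.40, at least 5.57-fold, unadjusted p = 0.0009). Its other probe sets gave 3.08 ± 0.91 and 2.07 ± 0.41, so all 3 pointed the same way.

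Itga6 read 133 and 130 in CD8α+ cells, against 68.8 and 61.9 in CD8α− cells (1.01 ± 0.31, 2.01-fold, unadjusted p = 0.0259). Itga5 read 210 and 227 in CD8α+ cells, against 409 and 583 in CD8α− cells (-1.16 ± 0.35, 2.24-fold, unadjusted p = 0.0245). In both genes the populations were separate, in opposite directions. Leaving out a CD8α+ array left only the CD8α− pair to show spread within a population, and fewer of all genes were called. Neither the Itga6 nor the Itga5 call held then, though the differences stayed about as large. Without CD8α+ replicate 1 they were 0.99 for Itga6 (unadjusted p = 0.210) and -1.11 for Itga5 (unadjusted p = 0.182). Without CD8α+ replicate 2 they were 1.02 for Itga6 (unadjusted p = 0.197) and -1.22 for Itga5 (unadjusted p = 0.149). On the deposited scale the Itga5 populations overlapped and the difference was -0.18 (unadjusted p = 0.747), and its second tested probe set gave -0.20 ± 0.32.

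Itgb1, the common partner of these chains, read 247 and 297 in CD8α+ cells, against 218 and 219 in CD8α− cells. The difference of 0.31 ± 0.32 did not pass (unadjusted p = 0.382). Its 5 tested probe sets disagreed in size, at 0.31 to 1.92. The larger values came from 3 probe sets that lay below background in both CD8α− arrays, of which those with 1.86 ± 0.49 and 1.92 ± 0.40 had an unadjusted p under 0.05. With median centring the representative gave 1.28 (unadjusted p = 0.0212). Itga4, which joins β1 or β7, read 2661 and 2894 in CD8α+ cells, against 2595 and 1036 in CD8α− cells (0.76 ± 0.54, unadjusted p = 0.224), and its 5 probe sets ran from -0.40 to 0.76. CD8α− replicate 2 stood apart from the other 3 arrays. Leaving out CD8α− replicate 1 gave an Itga4 difference of 1.42 (unadjusted p = 0.0067), and leaving out CD8α− replicate 2 gave 0.097. Itga8 (0.56 ± 0.39) and Itga9 (-0.83 ± 0.49), which bind matrix proteins such as tenascin and osteopontin, did not pass. Itga9 exceeded background on 1 array of each population. With CD8α− replicate 1 left out Itga8 stood at 0.94 (unadjusted p = 0.0164) and Itga9 at -0.46, and with CD8α− replicate 2 left out Itga8 stood at 0.19 (unadjusted p = 0.343) and Itga9 at -1.21.

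**Figure D3:**
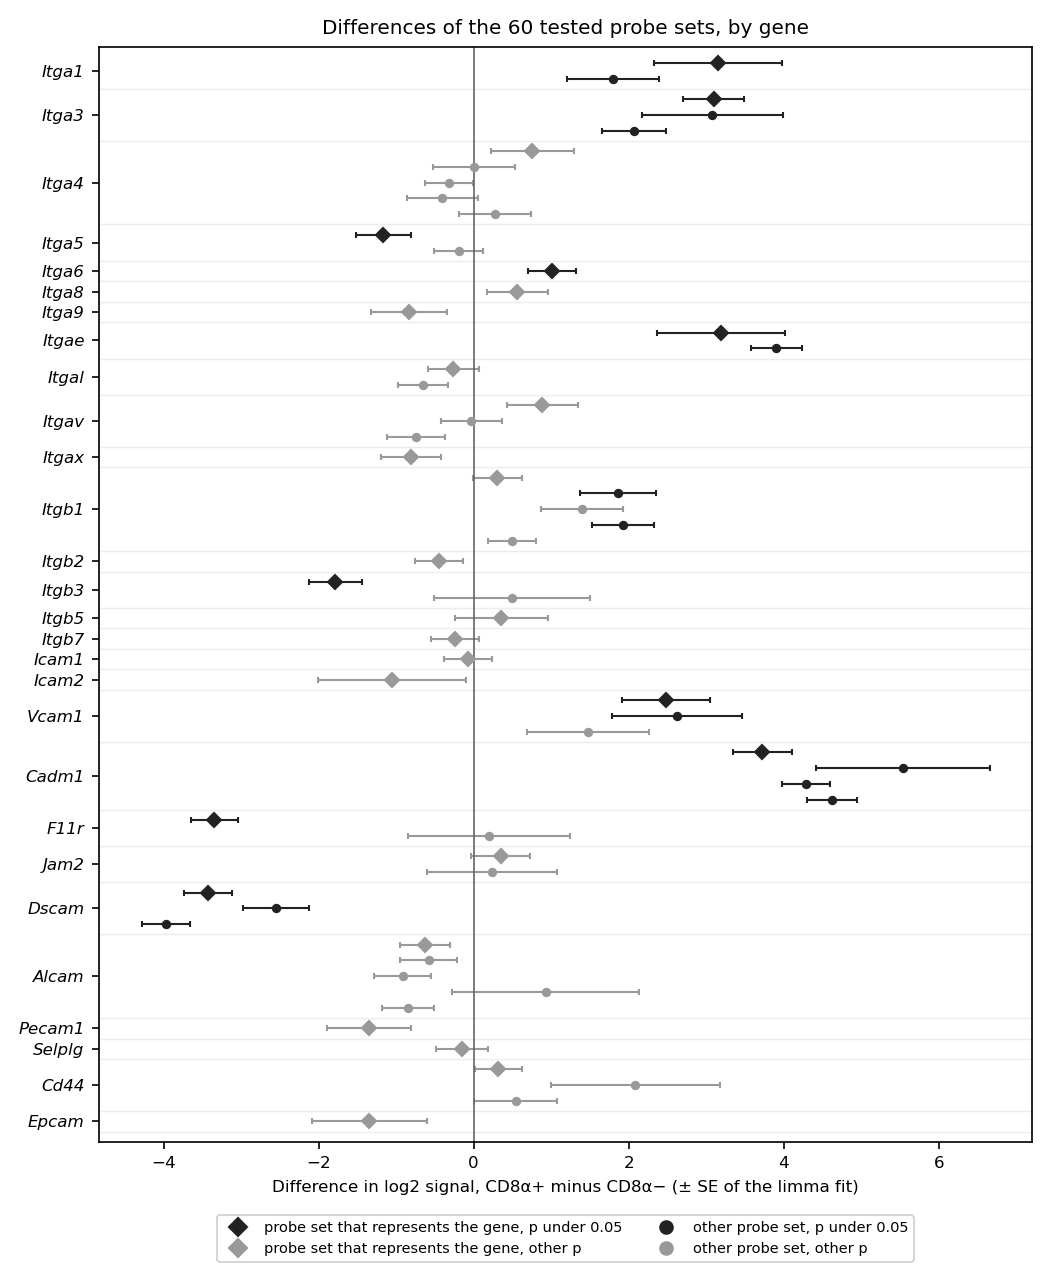
Difference in log2 signal, CD8α+ minus CD8α−, with the SE of the limma fit, for the 60 tested probe sets grouped by gene. Diamonds are the probe sets that represent a gene and black marks have an unadjusted p under 0.05; the 4 probe sets of Cadm1 lie between 3.72 and 5.54, and the 5 of Itgb1 spread from 0.31 to 1.92.

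The leukocyte β2 integrins, whose alpha chains Itgal (LFA-1), Itgam (Mac-1), Itgax (CD11c) and Itgad share the chain Itgb2, did not pass the test where they could be tested. Itgb2 read 1080 and 1134 in CD8α+ cells, against 1533 and 1486 in CD8α− cells (-0.45 ± 0.30, unadjusted p = 0.208). Itgal read 417 and 405 in CD8α+ cells, against 430 and 566 in CD8α− cells (-0.26 ± 0.33, unadjusted p = 0.467). Itgax read 1242 and 1370 in CD8α+ cells, against 1803 and 2894 in CD8α− cells (-0.81 ± 0.38, unadjusted p = 0.0945). In each of the 3 the CD8α+ arrays lay below the CD8α− arrays. The Itgax difference was -1.15 (unadjusted p = 0.0121) without CD8α− replicate 1 and -0.47 (unadjusted p = 0.0943) without CD8α− replicate 2, and its unadjusted p was 0.0446 with an intensity trend in the variance. Leaving out the same arrays gave -0.46 and -0.064 for Itgal. On the deposited scale the differences of Itgb2, Itgal and Itgax were 0.45, 0.75 and 0.012, so their direction depended on the scaling. Itgam, used in flow cytometry as CD11b to recognise cDC2 cells, had a single probe set under the filter. It read 3.80 and 4.97 in CD8α+ cells, against 9.36 and 18.0 in CD8α− cells, all below background, so no level of Itgam was measured. Itgam, Itgax and Itgad are neighbouring genes in the RefSeq annotation.

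Of the chains that form the vitronectin-type receptors, Itgb3 was dimmer in CD8α+ cells. It read 67.7 and 66.8 in CD8α+ cells, against 197 and 272 in CD8α− cells (-1.78 ± 0.34, 3.44-fold, unadjusted p = 0.00465). Leaving out CD8α+ replicate 1 gave Itgb3 a difference of -1.79 (unadjusted p = 0.0539), and leaving out CD8α+ replicate 2 gave -1.77 (unadjusted p = 0.0557). In the deposited signals the Itgb3 difference was -1.02 (unadjusted p = 0.109). The second Itgb3 probe set gave 0.49 ± 1.003, with 1 array of each population below background. Itgb3 is also part of the platelet receptor with Itga2b. Of 8 platelet markers 0 of the 3 tested passed, while their summed signal was 174 and 145 in CD8α+ cells, against 297 and 297 in CD8α− cells. Of those tested, Pf4 (31.6 and 37.4 in CD8α+ cells, against 32.8 and 60.3 in CD8α− cells) overlapped between the populations. Ppbp (45.5 and 28.4 in CD8α+ cells, against 26.1 and 48.8 in CD8α− cells) did too. Clec1b did not (47.6 and 42.4 in CD8α+ cells, against 105 and 71.0 in CD8α− cells). The other platelet markers were too dim to be tested. The part of platelets in the Itgb3 difference was not tested. Itga2b itself exceeded background on 1 of 4 arrays and was not tested.

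Itgav, the alpha chain of these receptors, read 3232 and 2957 in CD8α+ cells, against 2376 and 1175 in CD8α− cells (0.89 ± 0.46, unadjusted p = 0.116). Its other tested probe sets gave -0.03 ± 0.39 and -0.74 ± 0.38, so the gene had no common direction. Leaving out CD8α− replicate 1 gave 1.40 on the representative (unadjusted p = 0.00717), and leaving out CD8α− replicate 2 gave 0.38. Itgb5 did not pass (0.36 ± 0.60), and gave 1.13 (unadjusted p = 0.0131) without CD8α− replicate 1 and -0.42 without CD8α− replicate 2. Its untested dim probe set read 1.98 and 2.61 in CD8α+ cells, against 22.4 and 45.8 in CD8α− cells, and it represents the gene when no filter is used (-2.20, unadjusted p = 0.0188). Itgb8, whose pairing with αv activates latent TGF-β, was under the filter with 1.98 and 3.70 in CD8α+ cells, against 28.9 and 24.0 in CD8α− cells. Of these 4 signals 1 exceeded background.

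Vcam1, the ligand of α4 integrins, was brighter in CD8α+ cells. It read 324 and 384 in CD8α+ cells, against 38.8 and 103 in CD8α− cells (2.48 ± 0.56, 5.58-fold, unadjusted p = 0.00909). Its other probe sets gave 2.62 ± 0.84 and 1.48 ± 0.79, in the same direction. Leaving out CD8α− replicate 1 gave 1.78 and leaving out CD8α− replicate 2 gave 3.18. Red pulp macrophages of the spleen also carry VCAM-1. The summed signal of 9 markers of theirs was 680 and 772 in CD8α+ cells, against 1452 and 1956 in CD8α− cells, with 0 of 5 tested markers brighter and 3 dimmer. Stromal and endothelial markers summed to 96.1 and 111 in CD8α+ cells, against 149 and 82.8 in CD8α− cells, and at most 2 of 8 exceeded background on an array. The part of any of these cells in the Vcam1 signals was not tested.

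The β2 integrin ligand Icam1 read 1202 and 1147 in CD8α+ cells, against 1202 and 1271 in CD8α− cells. Its difference was -0.07 ± 0.30 (unadjusted p = 0.819). Icam2, another LFA-1 ligand, had 1 array of each population below background (-1.05 ± 0.96), and gave -2.02 without CD8α− replicate 1 and -0.083 without CD8α− replicate 2.

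F11r and Dscam were dimmer in CD8α+ cells, where their signals lay around or below background. F11r encodes JAM-A, a junctional adhesion molecule of epithelia, endothelia, platelets and leukocytes. On its representative probe set F11r read 5.78 and 5.24 in CD8α+ cells, both at the floor, against 71.3 and 70.6 in CD8α− cells (-3.34 ± 0.30, at least 2.73-fold, unadjusted p = 0.000204). The floor set its spread in CD8α+ cells to 0, so that SE leaves out the variation there. The second F11r probe set gave 0.19 ± 1.04, with 25.04 and 19.99 in CD8α+ cells, against 54.9 and 1.86 in CD8α− cells. Dscam, an immunoglobulin-like molecule best known from neurons, read 27.6 and 29.6 in CD8α+ cells, against 302 and 314 in CD8α− cells (-3.43 ± 0.31, unadjusted p = 0.000189). The other 2 tested Dscam probe sets gave -2.56 ± 0.43 (at least 4.44-fold) and -3.97 ± 0.31 (at least 4.23-fold). In the representative, 1 of the CD8α+ arrays was above background, and in the other 2 probe sets 0 were. In the probe set with -3.97 both CD8α+ arrays were at the floor, so its SE leaves out their spread. The junctional molecules Jam2 (0.35 ± 0.38) and Jam3 and Esam, both under the filter, had overlapping populations on their brightest probe sets. Jam2 gave 0.026 when CD8α− replicate 1 was left out and 0.67 when CD8α− replicate 2 was.

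Alcam, the CD166 ligand of the T cell molecule CD6, read 3270 and 3709 in CD8α+ cells, against 4946 and 5831 in CD8α− cells (-0.62 ± 0.32, unadjusted p = 0.114). Of its 5 probe sets 4 lay between -0.92 and -0.58. The remaining probe set gave 0.93 ± 1.21, with 1072 on CD8α− replicate 1 and 94.8 on CD8α− replicate 2. Leaving out CD8α− replicate 1 gave an Alcam difference of -0.74 (unadjusted p = 0.0389), and an intensity trend gave an unadjusted p of 0.036. Cd6 itself read 46.0 and 60.1 in CD8α+ cells, against 10.8 and 24.6 in CD8α− cells (1.69 ± 0.51, at least 1.68-fold, unadjusted p = 0.0257).

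Cd44, the hyaluronan receptor, read 2434 and 2239 in CD8α+ cells, against 1907 and 1841 in CD8α− cells (0.32 ± 0.31, unadjusted p = 0.353). Another Cd44 probe set gave 2.09 ± 1.09, with 2538 on CD8α− replicate 1 and 292 on CD8α− replicate 2, so that value rested on 1 array. Selplg, which encodes the selectin ligand PSGL-1, differed by -0.15 ± 0.34 and its populations overlapped. Pecam1, a molecule of endothelia, platelets and myeloid cells (-1.35 ± 0.54, unadjusted p = 0.0607), and Epcam, an epithelial molecule also found on Langerhans cells (-1.34 ± 0.75, unadjusted p = 0.138), did not pass. Their calls moved with 1 array, as Pecam1 gave -2.02 (unadjusted p = 0.033) without CD8α+ replicate 1 and Epcam -2.36 (unadjusted p = 0.0201) without CD8α+ replicate 2. The 8 genes on the array that were not tested were Itga2, Itga2b, Itga7, Itgam, Itgb8, Jam3, Esam and Cdh1.

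**Figure D4:**
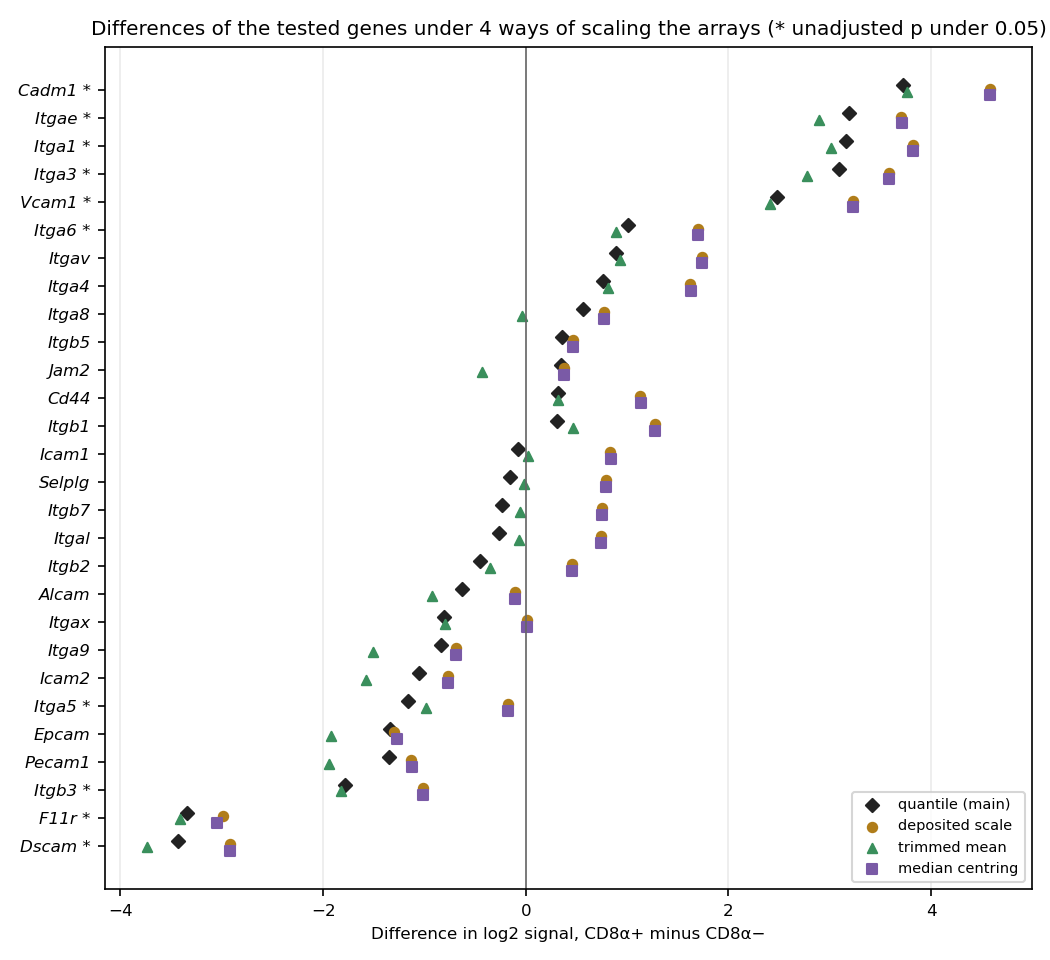
Difference in log2 signal, CD8α+ minus CD8α−, of the 28 tested genes under quantile normalization, the deposited scale, trimmed-mean scaling and median centring, ordered by the first; asterisks mark an unadjusted p under 0.05 there. Cadm1 stays between 3.72 and 4.58 and Dscam between -3.73 and -2.92. Icam1, Itgb7, Itgal, Itgb2, Itgax, Selplg, Itga8 and Jam2 lie on different sides of 0 under different scalings. Itgb5 was not tested with trimmed means and has no mark there.

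Genes that work with these molecules were described through 4 wider lists. Of 32 tested genes for integrin activation and adaptors, 0 were brighter and 2 dimmer in CD8α+ cells at an unadjusted p under 0.05, against 7.02% and 8.73% of all tested genes, and the median was -0.22. In this list, dropping CD8α+ replicate 1 gave a median of -0.24, and dropping CD8α+ replicate 2 gave -0.22. Dropping CD8α− replicate 1 instead gave -0.44, and dropping CD8α− replicate 2 gave -0.0036. Over these fits the median of all genes lay between -0.11 and 0.0025. Fyb, an adaptor that links T cell and integrin signals, read 577 and 613 in CD8α+ cells, against 1824 and 2691 in CD8α− cells (-1.90 ± 0.36, 3.73-fold, unadjusted p = 0.00437). The kindlin gene Fermt2 was the other (-1.60 ± 0.51, at least 1.66-fold). Tln1, which encodes talin, and the leukocyte kindlin Fermt3 were among the 30 that did not pass. Of 10 tested matrix ligands 0 were brighter and 4 dimmer, against the same shares of all genes, with a median of -0.95. The median of the matrix ligands ran from -1.22 to -0.70 when 1 array was dropped. The 4 dimmer genes included the basement membrane gene Nid1 (-1.73 ± 0.36, at least 2.28-fold) and the collagen Col3a1 (-1.11 ± 0.33). With them were thrombospondin 1, Thbs1 (-1.19 ± 0.39, 2.28-fold), and the αv ligand Edil3 (-1.90 ± 0.63, at least 1.69-fold). Thbs1 was the member of these whose signals all exceeded background, at 300.1 and 178 in CD8α+ cells, against 518 and 536.5 in CD8α− cells.

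Of 26 tested genes for other adhesion molecules 3 were brighter and 6 dimmer in CD8α+ cells, again against 7.02% and 8.73% of all genes, with a median of -0.49. That median ran from -0.58 to -0.29 when 1 array was dropped. Besides Crtam and Cd6, the CD24 gene Cd24a was brighter, at 4966 and 4884 in CD8α+ cells, against 2636 and 1305 in CD8α− cells (1.41 ± 0.45, 2.66-fold, unadjusted p = 0.0311). Those with the smallest p among the dimmer genes were L1cam (-1.66 ± 0.40, 3.15-fold), the sialomucin Spn or CD43 (-1.81 ± 0.47, 3.52-fold), Cd2 (-1.40 ± 0.38, 2.63-fold) and Cadm3. Spn and Cd2 are also carried by T and NK cells, whose markers are given above, and the part of those cells was not tested. The list of other integrin subunits held 1 tested gene, Itgb6, which did not pass. Over the 4 lists 3 calls were brighter and 12 dimmer, where 7.02% and 8.73% of all genes were. On the deposited scale the split was 7 and 3 (10.3% and 2.37% of all genes). With trimmed means it was 2 and 19 (5.82% and 16.5% of all genes), and with median centring 12 and 4 (28.3% and 4.20%). The shares of all genes moved with the scaling too, so the balance of these lists is not settled.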

How the data were processed

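Each array came as a column of MAS5 intensity, not log transformed, as the authors deposited it. The submitters' processing notes name MAS5 without a scaling target. Signals were quantile normalized on the log2 scale over all probe sets, raised to a floor of 6.99 (mean 25th percentile) and log2 transformed. After leaving out 64 controls, 45037 probe sets remained, of which 34945 had 1 symbol in the platform annotation, 932 several and 9160 none. The 22519 whose mean linear signal reached the median, 23.0, were tested.

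Populations were compared with limma 3.58.1 under R 4.3.3 by a two-sided moderated test (lmFit, then eBayes with no trend, 2 residual and 2.48 prior degrees of freedom). Benjamini-Hochberg adjustment ran over all tested probe sets, and the unadjusted p-values come from that limma fit. An exact permutation test of 2 against 2 arrays cannot go below 0.333 and was not used. The fitting code was tested on simulated data. For each gene the tested probe set of highest mean log2 signal was used, and one whose name ends in _x_at only where the gene had no other.

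The written design had quantile normalization on the linear signal and a mean signal of unstated scale for choosing the probe set. Both were moved to the log2 scale after values had been seen, to match earlier processing of these data. Run as the design words it, with linear means, the fit gave the same 6 brighter and 4 dimmer member calls.

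Every member is named, and from each wider list up to 4 genes per direction with the smallest unadjusted p under 0.05. Members and lists were chosen with earlier results of these data known. The main fit did not pair arrays by the labels' replicate numbers. Deviations of same-numbered arrays correlated at 0.031, a value that cannot settle pairing with 2 arrays per population. Alternatives were other scalings, floors, filters and representative probe sets, a variance trend, a replicate block and leaving out each array. Promoter sequences are RefSeq's (GRCm38.p6). Figures were drawn with Python 3.11.15, pandas 2.3.3 and matplotlib 3.10.9.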

Additional observations from a re-analysis of the deposited data

How the results depend on the processing

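Cadm1, Dscam, F11r, Itga3 and Vcam1 kept their direction in each alternative run. In each run on all 4 arrays they also kept an unadjusted p under 0.05 in the limma fit. For F11r both CD8α+ arrays were at the floor, so leaving out either had to give the same difference, -3.34. Its probe set reached the filter through its CD8α− signals alone. When 1 array was left out, member genes called numbered 5 to 10 brighter and 3 to 6 dimmer, wider-list genes 0 to 11 brighter and 2 to 20 dimmer, and probe sets past the adjusted threshold 0 to 2887. Over the same fits 1.85% to 22.4% of all genes were brighter and 3.16% to 21.3% dimmer. The highest of these, 2887, came without CD8α− replicate 1, where the lone CD8α− array is assumed to vary like the CD8α+ pair. The deposited scale gave 2 members dimmer, and 7 wider-list genes brighter and 3 dimmer, where 10.3% of all genes were brighter and 2.37% dimmer. Trimmed means gave 7 members and 19 wider-list genes dimmer, where 16.5% of all genes were. Median centring gave 10 members and 12 wider-list genes brighter (28.3% of all genes were) and 4 wider-list genes dimmer (4.20% of all genes were). It gave 406 probe sets past the adjusted threshold, and an intensity trend gave 60. With no filter 36 members were tested, of which 4 were brighter and 8 dimmer, against 7.02% and 8.48% of 18193 genes. A block by the labels' replicate numbers, which may not pair the arrays, gave 14 probe sets past the adjusted threshold. It gave 5 wider-list genes brighter, where 7.39% of all genes were, and moved Itga6 to an unadjusted p of 0.0749 and Pecam1 to 0.0393. The 3 settings that follow were added after seeing the data. Choosing the probe set by linear mean gave 5.54 for Cadm1 and 2.09 for Cd44, linear-scale quantiles gave 3.71 and 0.31, and both together 5.53 and 2.04, with 6 members brighter, 4 dimmer and 0 probe sets past the adjusted threshold in each.

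Sign changes touched genes that had not passed. On the deposited scale and with median centring they were Icam1 (0.835 and 0.837), Itgal (0.745 and 0.747), Itgax (0.0118 and 0.0137), Itgb2 (0.455 and 0.457), Itgb7 (0.755 and 0.757) and Selplg (0.790 and 0.792). With trimmed means they were Icam1 (0.0241), Itga8 (-0.0371) and Jam2 (-0.436). Itgav gave -0.744 on its probe set with the smallest p. Itgb5 gave -2.20 with no filter, from another probe set, and when 1 array was left out it ran from -0.416 to 1.13. Selplg ran from -0.369 to 0.0587 when 1 array was left out. The cause was not tested. With 2 arrays per population, signals near background limit Itga2, Itga2b, Itga7, Itga9, Itgam, Itgb5, Itgb8, Icam2, Jam2, Jam3, Esam, Pecam1, Epcam and Cdh1.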
